A study of Mus musculus with 18 samples.

Results

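Signals of 8 genes for apolipoproteins and for the handling of cholesterol (Apoe, Apod, Clu, Lcat, Abca1, Abcg1, Lrp1 and Cyp46a1) were read from hippocampal RNA in 18 arrays. The genes were chosen by symbol: every probe set that the platform annotation assigned to a listed gene was taken, which gave 16 probe sets, and the 8 genes were among 18193 genes with a probe set of their own. All 8 genes had at least 1 probe set with a mean signal above 20, and 14 of the 16 probe sets passed this minimum. The 2 others belonged to Abca1, with mean signals of 7.88 (1421839_at) and 4.43 (1450392_at), and were not tested.

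Neurons receive much of their cholesterol from astrocytes, which pack it into particles built on apolipoprotein E. ABCA1 and ABCG1 load these particles at the cell membrane, LCAT esterifies the cholesterol on them, and receptors of the LDL receptor family such as LRP1 take them up. Cholesterol does not cross the blood-brain barrier, and neurons clear it by turning it into 24S-hydroxycholesterol with the enzyme CYP46A1. This oxysterol activates the nuclear receptors LXR, of which Abca1, Abcg1 and Apoe are well-known target genes.

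Male C57BL/6J mice, which began the experiments at 10 weeks of age, formed 6 groups with 3 arrays each. Intermittent hypoxia treatment (IHT) consisted of 3 min cycles of nitrogen and room air for 8 h per day, in which the inspired oxygen went down to 5%. IH5D mice received IHT for 5 days and IH28D mice for 28 days, and both were killed at the end of the last session. IH5DR2 mice received IHT for 5 days and were then kept in normoxia for 64 h, which the labels call a recovery of 2 days. Ctrl mice were untreated, Ctrl28 mice were reared for 28 days in normoxia, and 12 m mice were reared for 12 months without treatment. The hour at which the Ctrl, Ctrl28 and 12 m mice were killed is not given in the sources used here. The labels do not say whether each array holds the RNA of a separate mouse, so p-values measure the spread between arrays, which may be technical.

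Several properties of the arrays moved with the groups. The gap between the 3' and 5' control probe sets of actin and Gapdh, a measure of RNA integrity on the log2 scale, was 0.328 to 0.535 in the Ctrl, IH5D, IH5DR2 and IH28D arrays. It was 0.617 to 0.862 in the 12 m arrays and 2.39, 0.822 and 0.966 in the Ctrl28 arrays. Ctrl28 array 1 stood apart from all others by this gap. The labels give no batch, but the sample numbers of Ctrl28 form a run of their own, apart from that of all other groups. These numbers do not say how the arrays were handled. The rearing of 28 days and the handling of the Ctrl28 arrays thus cannot be told apart. All 12 neuron markers, all 15 astrocyte markers and 11 of 11 oligodendrocyte markers with a probe set passed the minimum signal, with Camk2a between 3336 and 5808 and Mbp between 9184 and 11630. Of the choroid plexus markers, Ttr ranged from 1584 to 17270 in the groups other than 12 m and from 565 to 1602 in 12 m. In whole tissue, fewer cells of a type and less RNA per cell cannot be told apart.

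**Figure D1:**
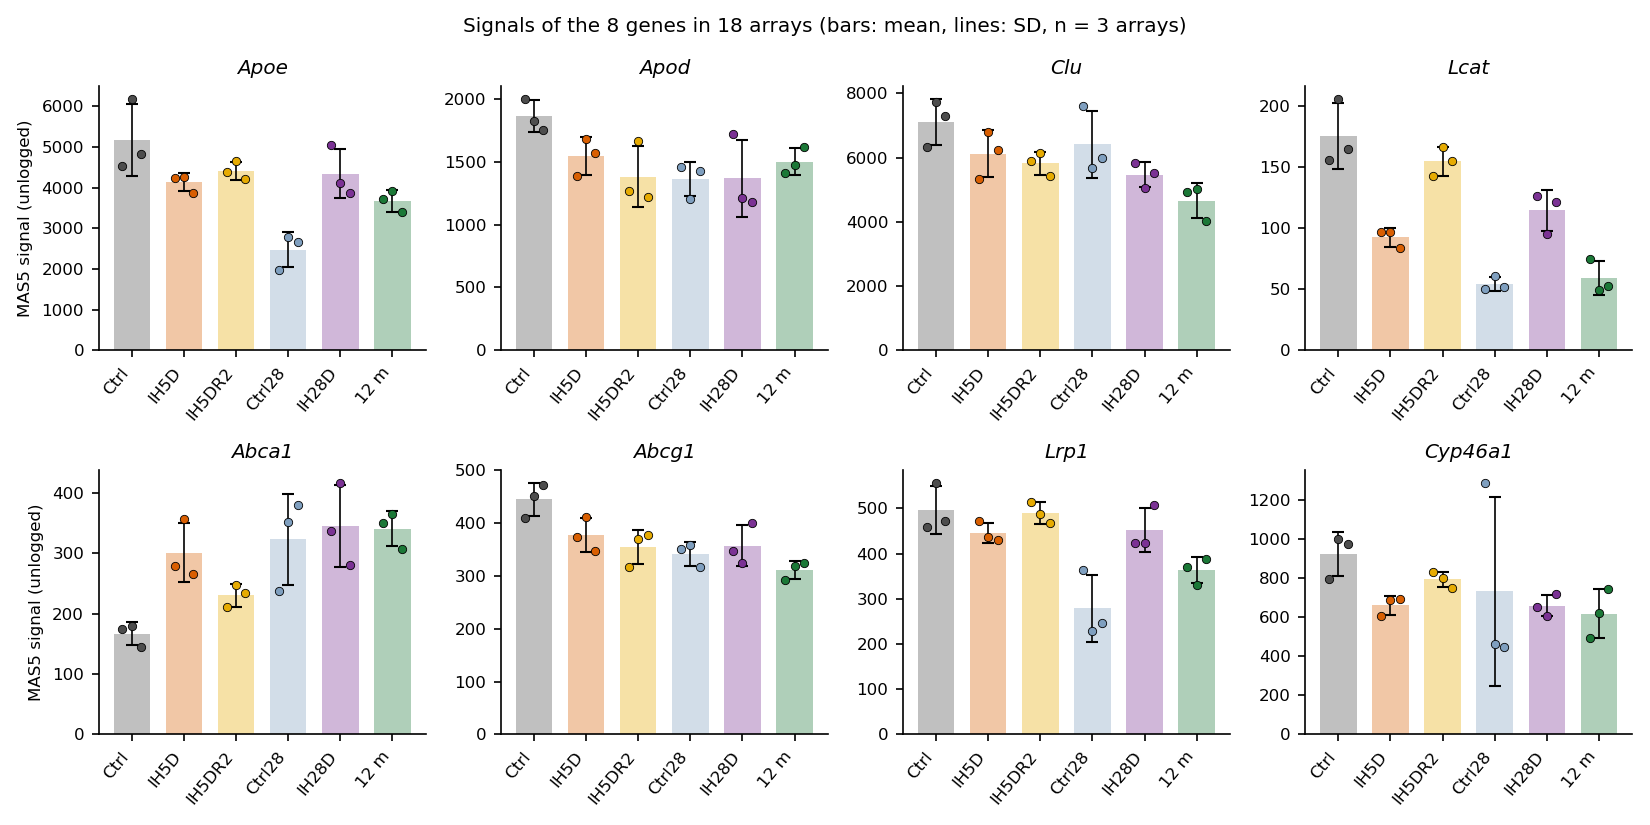
Each panel plots the MAS5 signal (unlogged, axis from 0) of the brightest probe set of 1 gene in the 6 groups. Points are arrays 1 to 3 from left to right, bars are means and lines are SDs (n = 3 arrays). Lcat was highest in Ctrl and lowest in Ctrl28 and 12 m, Abca1 was lowest in Ctrl, and Cyp46a1 in Ctrl28 was split between an array at 1290 and arrays at 462 and 446.

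The signals are given first by gene, on the unlogged scale, in the order of their roles. Probe sets differ in how strongly they bind, so an order of groups holds within a probe set and no gene is set against another. The signals given for each gene are those of its brightest probe set. Other probe sets of Clu, Apod, Abcg1 and Lrp1 gave other orders. For Lrp1, Ctrl had the highest mean in 1448655_at (497) and the lowest in 1442849_at (27.1). Apoe, the main apolipoprotein of brain particles, had signals of 4533, 6191 and 4823 in Ctrl, 4249, 4265 and 3873 in IH5D, and 4389, 4652 and 4214 in IH5DR2. In the later groups it stood at 1984, 2799 and 2657 in Ctrl28, 5038, 4123 and 3878 in IH28D, and 3719, 3912 and 3393 in 12 m. The order of means ran from Ctrl over IH5DR2, IH28D, IH5D and 12 m to Ctrl28, and of these neighbours only 12 m and Ctrl28 did not overlap.

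Clu, which encodes the secreted chaperone clusterin (apolipoprotein J), had signals of 6331, 7738 and 7292 in Ctrl, 5339, 6800 and 6235 in IH5D, and 5903, 6131 and 5425 in IH5DR2. It stood at 7604, 5669 and 5982 in Ctrl28, 5824, 5063 and 5516 in IH28D, and 4927, 5015 and 4032 in 12 m. The highest 12 m array lay below the lowest array of each other group, and the 5 other groups overlapped with their neighbours in the order of means. Apod, which encodes a lipocalin that binds small lipids, had its highest mean in Ctrl (1860 ± 127, SD, n = 3 arrays) and means of 1363 to 1544 in the other groups. The Ctrl arrays of Apod (1755 to 2001) lay above those of IH5D (1384 to 1677), the next group, and the 5 other groups overlapped.

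Lcat, the enzyme that esterifies cholesterol on particles, had the widest range of group means among the 8 genes in proportion to its signal. Its signals were 156, 206 and 165 in Ctrl, 96.8, 97.1 and 83.6 in IH5D, and 143, 167 and 155 in IH5DR2. They were 49.9, 60.7 and 51.6 in Ctrl28, 126, 95.4 and 122 in IH28D, and 74.8, 49.6 and 53.0 in 12 m. Neighbours in the order Ctrl, IH5DR2, IH28D, IH5D, 12 m and Ctrl28 overlapped, except that IH5DR2 lay above IH28D and IH5D above 12 m.

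Abca1, which moves cholesterol to lipid-poor apolipoproteins, ran the other way. Its signals were 175, 180 and 145 in Ctrl, 279, 356 and 266 in IH5D, and 210, 247 and 234 in IH5DR2. They were 238, 351 and 380 in Ctrl28, 336, 417 and 281 in IH28D, and 350, 364 and 308 in 12 m. The Ctrl arrays lay below all others, the IH5DR2 arrays lay between those of Ctrl and IH5D, and the 4 groups with the highest means overlapped. Abcg1, which loads particles that already carry lipid, was highest in Ctrl (445 ± 31.7) and lowest in 12 m (311 ± 16.8), with means of 342 to 378 in the 4 groups between them. All neighbours in the order of its means overlapped.

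Lrp1, an uptake receptor for particles with apolipoprotein E, had signals of 460, 557 and 473 in Ctrl, 471, 437 and 431 in IH5D, and 514, 488 and 467 in IH5DR2. They were 364, 229 and 246 in Ctrl28, 423, 425 and 508 in IH28D, and 370, 331 and 388 in 12 m. The Ctrl, IH5DR2, IH28D and IH5D arrays overlapped with their neighbours and lay above those of 12 m, which overlapped with Ctrl28. Cyp46a1, the cholesterol 24-hydroxylase, had signals of 794, 1001 and 977 in Ctrl, 606, 687 and 693 in IH5D, and 831, 799 and 751 in IH5DR2. They were 1290, 462 and 446 in Ctrl28, 653, 609 and 718 in IH28D, and 492, 622 and 743 in 12 m. In Ctrl28 the array with the large 3' to 5' gap held the highest Cyp46a1 signal of all 18 arrays and the 2 others held the lowest.

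The effect of IHT for 5 days was measured as IH5D vs. Ctrl. Abca1 rose, with all IH5D arrays (266 to 356) above all Ctrl arrays (145 to 180), and Lcat fell, with all IH5D arrays (83.6 to 97.1) below all Ctrl arrays (156 to 206). The log2 fold change of Abca1 was 0.84 with an SE of 0.18 (limma, adjusted p = 0.0191) and that of Lcat was -0.92 with an SE of 0.17 (adjusted p = 0.0129). Thus 1 of the 8 genes rose where 5.40% of all 11656 tested genes did, and 1 fell where 1.12% did. The 6 other genes had negative log2 fold changes of -0.15 to -0.48 that did not pass, and the median of the 8 was -0.25, beside -0.09 for all genes.

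The labels state no pairing, but deviations of same-numbered IH5D and Ctrl arrays from their group means correlated weakly (0.15, 0.29 and 0.24). A block by number was therefore tried after seeing the data. With the number as a block in a fit of these 2 groups alone, 6 of the 8 genes passed, in which Apoe (log2 fold change -0.32, adjusted p = 0.00874), Apod (-0.27, 0.0287), Clu (-0.22, 0.013) and Cyp46a1 (-0.48, 0.00128) fell besides Lcat, while 16.7% of all genes rose and 18.4% fell in that fit. Without the block, no gene of the 8 passed when Ctrl array 2, Ctrl array 3, IH5D array 1 or IH5D array 3 was left out, only Lcat passed without IH5D array 2, and Cyp46a1 passed as well without Ctrl28 array 1 (adjusted p = 0.0158). The calls over all 11656 genes moved with them: 760 with all arrays, 0 without Ctrl array 2 or Ctrl array 3, 18 without IH5D array 1, 9 without IH5D array 3, 232 without IH5D array 2 and 2727 without Ctrl28 array 1.

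Abca1 and Lcat were the 2 genes that passed after 5 days, in opposite directions, so the 250 bases before 1 start of each, as the RefSeq promoter table (GRCm38.p6) places it, are shown; the table held 6 of the 8 genes. Both sequences read 5' to 3' on the minus strand, the Abca1 stretch from chr4:53159896-53160145 and the Lcat stretch from chr8:105943403-105943652. Capitals mark matches on either strand to the E-box CACGTG, a repeat of GGTNA and GGTCA with 5 bases between them, the TATA box TATAAA and the CCAAT box CCAAT.
Abca1: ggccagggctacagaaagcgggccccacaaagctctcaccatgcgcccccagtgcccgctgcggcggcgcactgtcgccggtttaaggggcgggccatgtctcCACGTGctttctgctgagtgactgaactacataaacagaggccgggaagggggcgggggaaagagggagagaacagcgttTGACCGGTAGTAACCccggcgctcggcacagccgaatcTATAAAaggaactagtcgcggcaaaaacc
Lcat: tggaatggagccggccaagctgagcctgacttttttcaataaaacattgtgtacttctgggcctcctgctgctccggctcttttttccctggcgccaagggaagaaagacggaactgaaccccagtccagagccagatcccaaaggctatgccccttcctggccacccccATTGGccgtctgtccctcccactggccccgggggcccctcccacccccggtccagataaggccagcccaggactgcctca
The repeat, of the kind that LXR with its partner RXR binds, was spelled after the Abca1 stretch had been read, so its match is a description. It ran from base -67 to base -53 of Abca1, counted from the start that the table uses, and 0.177% of the 32851 promoters in the table hold it. Among the members in the table, which include Apoe, only Abca1 held the repeat. In IH5D vs. Ctrl the log2 fold changes of Apoe (-0.32) and Abcg1 (-0.24) were negative and did not pass. The part of LXR was not tested. Abca1 also held an E-box (6.02% of promoters) at -147 to -142 and a TATA box (12.4%) at -29 to -24. The Abca1 gene in RefSeq begins further upstream, at base 53159988, so the last 93 bases of this stretch, with the repeat and the TATA box, lie inside the gene, whereas the Lcat stretch ends where the gene begins. Lcat held a CCAAT box at -80 to -76 (33.8% of promoters), which Cyp46a1 also held at -153 to -149, and none of the other 3 motifs.

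The state after 64 h of normoxia was measured as IH5DR2 vs. Ctrl. With limma 0 of the 8 genes passed, beside 4.38% of all genes that rose and 1.24% that fell, while 4 of the 8 had an unadjusted p below 0.05, as had 28.5% of all genes. The methods' t-test gave 0 of the 8 with and 2 without adjustment, beside 21.6% of all genes without it. Lcat in IH5DR2 (143 to 167) overlapped with Ctrl, with a log2 fold change of -0.17 and an SE of 0.17 (adjusted p = 0.528), and Lrp1 had a log2 fold change of -0.02 with an SE of 0.15. Abca1 still lay above Ctrl in every array, with a log2 fold change of 0.47 and an SE of 0.18 (adjusted p = 0.108). All IH5DR2 arrays of Apod lay below those of Ctrl, with a log2 fold change of -0.44 and an SE of 0.15 (adjusted p = 0.0801). Without Ctrl28 array 1, whose group is not part of this comparison but enters the shared variance, Abca1 (adjusted p = 0.0303), Apod (0.0346) and Abcg1 (0.0429) passed at log2 fold changes of 0.47, -0.44 and -0.33, beside 22.3% of all genes in either direction.

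In IH5DR2 vs. IH5D, all IH5DR2 arrays of Lcat lay above those of IH5D and all IH5DR2 arrays of Abca1 lay below them. The log2 fold change of Lcat was 0.74 with an SE of 0.17 (adjusted p = 0.568) and that of Abca1 was -0.37 with an SE of 0.18 (adjusted p = 0.9995). With limma, 0 of the 8 genes and 0 of the 11656 genes passed in this comparison (0% rose and 0% fell), 418 genes and Lcat alone among the 8 had an unadjusted p below 0.05, and the methods' t-test gave 0 genes after adjustment and 700 without it.

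IHT for 28 days was compared with its own control, as IH28D vs. Ctrl28. Apoe, Lcat and Lrp1 rose, and no gene of the 8 fell, beside 6.05% of all genes that rose and 2.45% that fell. In each of the 3 genes all IH28D arrays lay above all Ctrl28 arrays: 3878 to 5038 against 1984 to 2799 for Apoe, 95.4 to 126 against 49.9 to 60.7 for Lcat, and 423 to 508 against 229 to 364 for Lrp1. The log2 fold changes were 0.82 with an SE of 0.14 for Apoe (adjusted p = 0.00173), 1.08 with an SE of 0.17 for Lcat (adjusted p = 0.00095) and 0.72 with an SE of 0.15 for Lrp1 (adjusted p = 0.00665). Abca1, Abcg1, Apod and Cyp46a1 had log2 fold changes of 0.10, 0.06, -0.01 and 0.03 with SEs of 0.12 to 0.27, and Clu had -0.22 with an SE of 0.13. The median of the 8 genes was 0.08, beside 0.02 for all genes.

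These rises rest on the shared variance and on the Ctrl28 group. In a fit of IH28D and Ctrl28 alone the same 3 log2 fold changes did not pass (adjusted p = 0.121 for Apoe, 0.069 for Lcat and 0.197 for Lrp1), and without Ctrl28 array 1 Cyp46a1 also rose, with a log2 fold change of 0.54 (adjusted p = 0.0171). Against Ctrl, the IH28D arrays gave log2 fold changes of -0.25 for Apoe (adjusted p = 0.178), -0.62 for Lcat (0.0142) and -0.14 for Lrp1 (0.495), while Abca1 rose by 1.03 (0.00125) and Apod (-0.46, 0.0264) and Clu (-0.38, 0.0346) fell, beside 17.5% of all genes that rose and 15.8% that fell. In the fit of IH28D and Ctrl28 alone 0.3% of all genes passed.

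**Figure D2:**
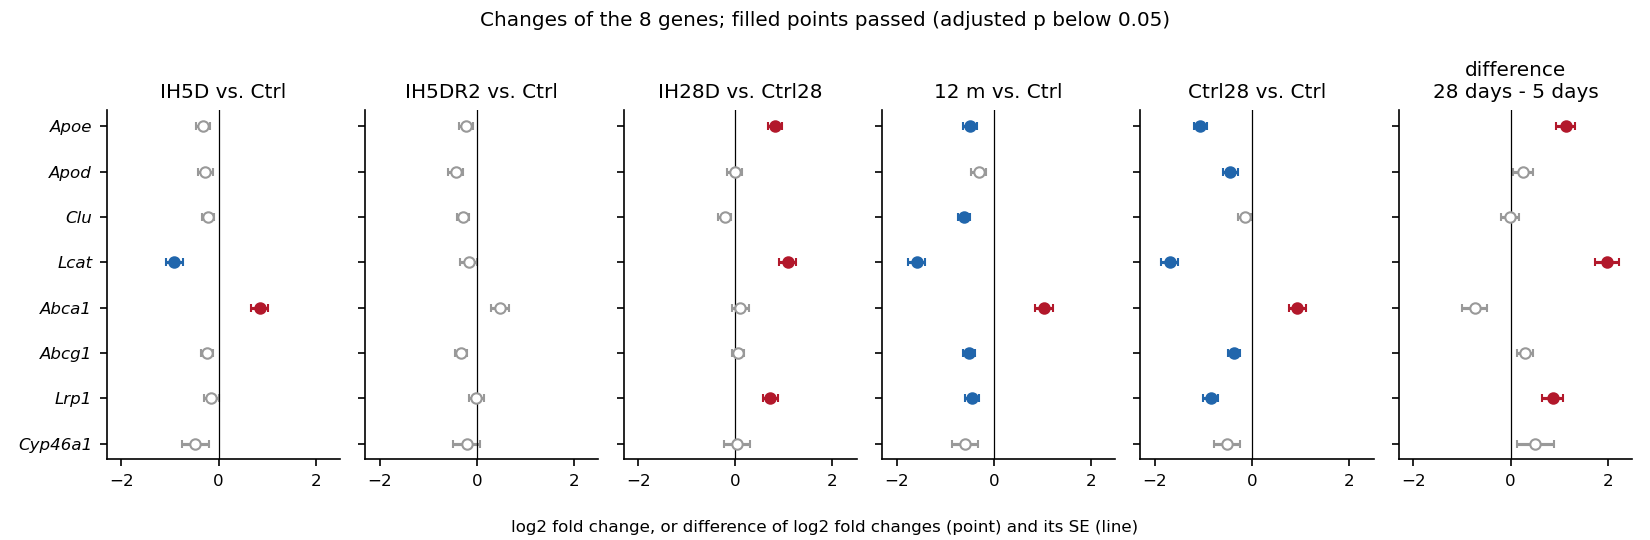
Points are log2 fold changes of the 8 genes from limma and lines are their SEs; filled points passed at an adjusted p below 0.05, red for higher and blue for lower, and the last panel is the log2 fold change of IH28D vs. Ctrl28 minus that of IH5D vs. Ctrl. Abca1 rose in IH5D, 12 m and Ctrl28 vs. Ctrl, Lcat fell in the same comparisons, and Apoe, Lcat and Lrp1 rose in IH28D vs. Ctrl28.

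The change after 28 days minus the change after 5 days, each against its own control, was positive and passed in Apoe, Lcat and Lrp1 of the 8 genes, beside 9.65% of all genes in either direction. It was 1.13 on the log2 scale with an SE of 0.20 for Apoe (adjusted p = 0.00234), 1.99 with an SE of 0.25 for Lcat (adjusted p = 0.000163) and 0.87 with an SE of 0.22 for Lrp1 (adjusted p = 0.0176). In these genes the Ctrl and Ctrl28 means lay further apart than the IH5D and IH28D means. Abca1 had a difference of -0.74 with an SE of 0.26 (adjusted p = 0.0754). Without Ctrl28 array 1 it passed at -0.95 (0.00418), as did Cyp46a1 at 1.01 (0.00117), and without IH28D array 2 Abca1 passed at -0.89 (0.0448). Without Ctrl array 2 Lrp1 did not pass (0.78, adjusted p = 0.057).

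Rearing for 12 months was measured as 12 m vs. Ctrl. Abca1 rose and Apoe, Clu, Lcat, Abcg1 and Lrp1 fell, beside 21.7% of all genes that rose and 31.6% that fell. The log2 fold change of Abca1 was 1.03 with an SE of 0.18 (adjusted p = 0.000249) and that of Lcat was -1.58 with an SE of 0.17 (adjusted p = 1.07e-05). Clu had -0.61 with an SE of 0.13 (0.00107), Abcg1 -0.51 with an SE of 0.12 (0.00218), Apoe -0.49 with an SE of 0.14 (0.00882) and Lrp1 -0.45 with an SE of 0.15 (0.0198). In the brightest probe sets of these 6 genes the 12 m and Ctrl arrays did not overlap. Apod (-0.31, adjusted p = 0.0904) and Cyp46a1 (-0.59, adjusted p = 0.0775) did not pass, though their 12 m arrays also lay below those of Ctrl. The median of the 8 was -0.50, beside -0.23 for all genes.

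The falls of Apoe and Lrp1 rested on few arrays: neither passed without Ctrl array 2 (log2 fold changes of -0.35 and -0.36, adjusted p = 0.0649 and 0.0934), and Lrp1 did not pass without 12 m array 2 (-0.38, 0.0771), while Cyp46a1 passed without Ctrl28 array 1 (-0.59, 0.000895). Against Ctrl28, of the same 12 m arrays, Apoe rose by 0.58 (adjusted p = 0.0113), Clu fell by 0.46 (0.0247), and the log2 fold changes of Lcat (0.11), Abca1 (0.10), Abcg1 (-0.13) and Lrp1 (0.41) did not pass. In that comparison 8.04% of all genes rose and 8.30% fell. The fall of Clu there was that of 1454849_x_at, and its other probe sets did not pass.

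The control groups themselves differed. In Ctrl28 vs. Ctrl, Abca1 rose and Apoe, Apod, Lcat, Abcg1 and Lrp1 fell, beside 16.9% of all genes that rose and 21.0% that fell. Lcat had a log2 fold change of -1.69 with an SE of 0.17 (adjusted p = 4.65e-06), Apoe -1.07 with an SE of 0.14 (3.65e-05), Lrp1 -0.86 with an SE of 0.15 (0.00041) and Abca1 0.93 with an SE of 0.18 (0.00086). Apod (-0.45, adjusted p = 0.0254) and Abcg1 (-0.38, 0.0204) passed as well, and neither passed without Ctrl array 2. Apod also did not pass without Ctrl array 1 or Ctrl28 array 2, nor Abcg1 without Ctrl array 3 or Ctrl28 array 3. Clu did not pass (-0.16, adjusted p = 0.362), but it fell with the mean of its probe sets (-0.33, 0.0425) and with array weights (-0.33, 0.00257). Apod did not pass with the mean of its probe sets (-0.42, 0.118), nor did Lrp1 (-0.23, 0.21). Cyp46a1 did not pass with all arrays (-0.52, 0.146) but fell without Ctrl28 array 1 (-1.02, 2.17e-05).

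**Figure D3:**
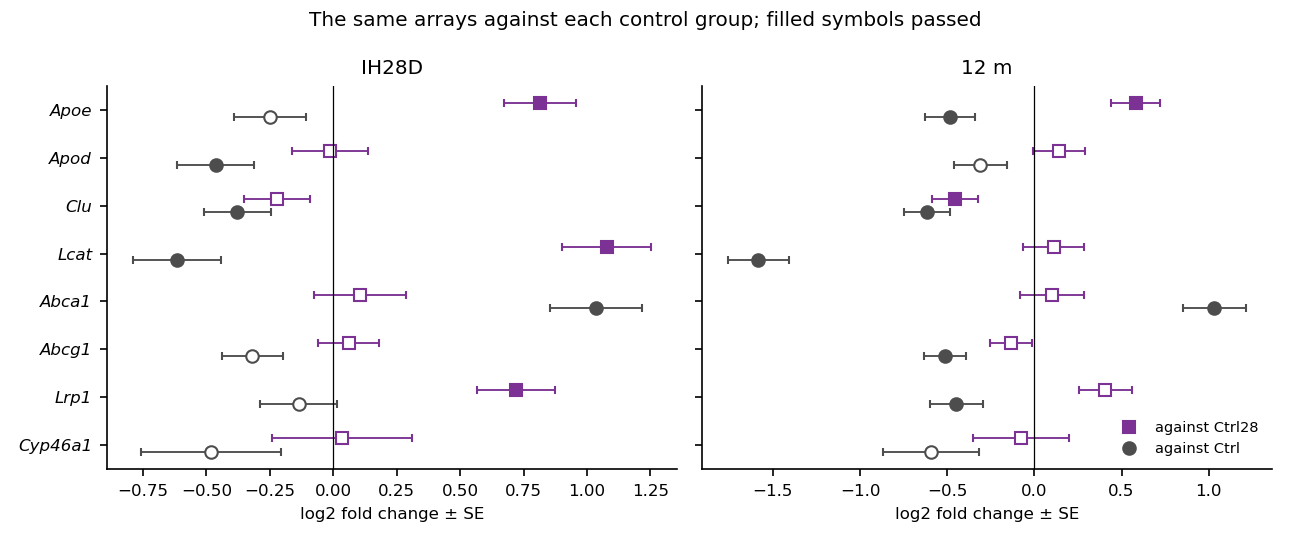
Log2 fold changes with SE of the IH28D arrays (left) and the 12 m arrays (right) against Ctrl28 (squares) and against Ctrl (circles), where filled symbols passed. For Lcat, the IH28D arrays lay at 1.08 against Ctrl28 and at -0.62 against Ctrl, and the main probe set of Clu in 12 m was lower against either control.

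The comparisons IH5D, IH5DR2, 12 m and Ctrl28 vs. Ctrl share the Ctrl arrays, in which Lcat was highest and Abca1 lowest, so their changes are given side by side and not as separate support. For Lcat the log2 fold changes were -0.92, -0.17, -1.58 and -1.69 in this order, and for Abca1 0.84, 0.47, 1.03 and 0.93. The 3' to 5' gap moved with several of these signals. Over the 18 arrays, which share the groups and the apart-standing Ctrl28 array 1, the Pearson correlation of the gap with the log2 signal was -0.85 for Apoe, -0.65 for Lcat, -0.45 for Lrp1, -0.27 for Abcg1 and 0.30 for Cyp46a1, and 0.08 for Abca1. The gap was also put into the fit as a covariate. Its slope there comes from the spread within groups, which was 0.822 to 2.39 in Ctrl28 and much narrower in every other group. The slope thus rests mainly on Ctrl28 array 1, so this fit cannot decide the part of the gap in the differences between groups. With it, the 3 rises of IH28D vs. Ctrl28 still passed, as did the fall of Lcat and the rise of Abca1 in IH5D vs. Ctrl. The calls over all genes in IH5D vs. Ctrl went from 760 to 2912, beside 2727 without Ctrl28 array 1. Cyp46a1 then passed in IH5D vs. Ctrl (-0.57, adjusted p = 0.0069), 12 m vs. Ctrl (-0.93, 2.63e-05), Ctrl28 vs. Ctrl (-1.48, 1.05e-05) and IH28D vs. Ctrl28 (1.05, 0.00108). The difference of 28 from 5 days also passed for Cyp46a1 (1.62, 0.000178) and for Abca1 (-1.19, 0.00332), and in IH5DR2 vs. Ctrl Abca1 (0.50, 0.0257), Apod (-0.45, 0.0343) and Abcg1 (-0.33, 0.0452) passed.

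**Figure D4:**
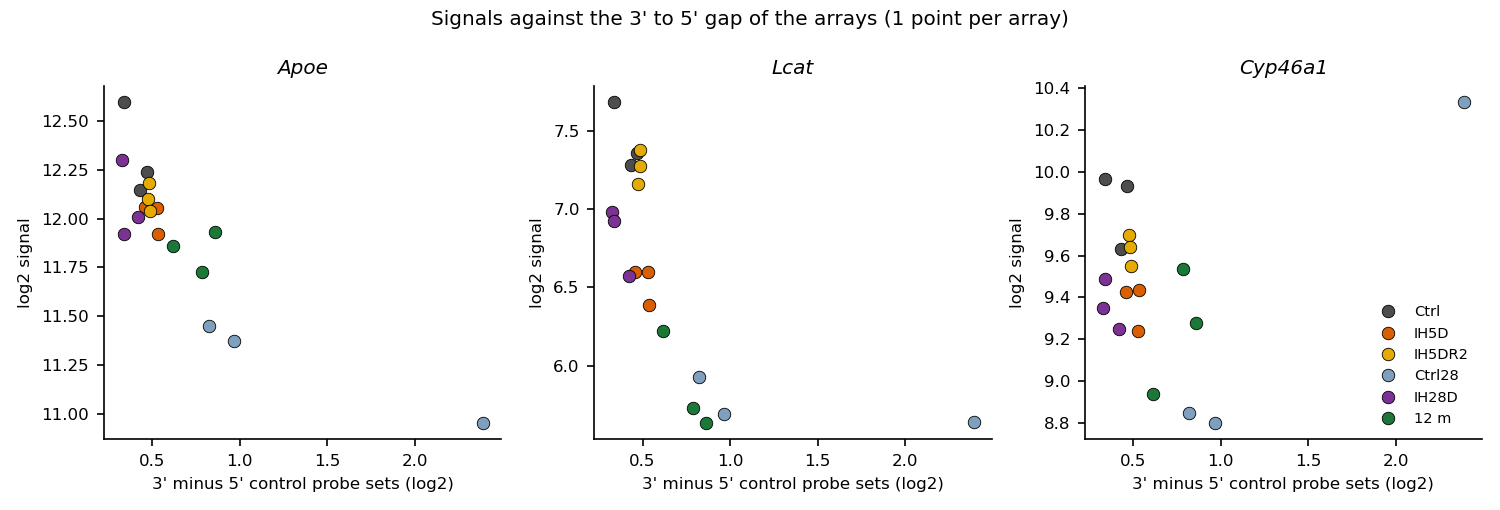
Each point is 1 array, with the log2 difference between the 3' and 5' control probe sets on the x axis and the log2 signal on the y axis. Ctrl28 array 1, at a gap of 2.39, held the lowest Apoe signal (1984) and the highest Cyp46a1 signal (1290).

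Genes with several probe sets differed in how well these matched. All 4 probe sets of Clu fell in 12 m vs. Ctrl, with log2 fold changes of -0.42 to -0.81 (adjusted p of 0.0151 or lower), beside 25.6% of all 19919 probe sets. In 12 m vs. Ctrl28 only 1454849_x_at of Clu fell (-0.46, adjusted p = 0.0272), beside 7.24% of all probe sets. There 1418626_a_at (-0.16), 1437458_x_at (-0.17) and 1437689_x_at (-0.27) did not pass. In IH28D vs. Ctrl28 the signs of Clu were split, with 0.25 for 1418626_a_at against -0.22 (1454849_x_at), -0.16 (1437689_x_at) and -0.32 (1437458_x_at). None of these passed, beside 5.84% of all probe sets that rose and 2.3% that fell. For the difference of 28 from 5 days, 1418626_a_at had 0.53 (adjusted p = 0.0795), and the others had -0.002, -0.003 and -0.23 in the same order. In Ctrl28 vs. Ctrl only 1418626_a_at of Clu fell (-0.64, adjusted p = 0.00127), the 3 others having -0.16 to -0.28. The x_at suffix of those 3 marks probes that can match other transcripts. Over the 18 arrays their correlation with the main probe set of Clu (1454849_x_at) was 0.92 for 1437689_x_at and 0.73 for 1437458_x_at, and that of 1418626_a_at was 0.76.

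The probe sets of Lrp1 did not move together. 1442849_at, with signals of 26.1 to 28.3 in Ctrl and 48.3 to 54.5 in 12 m, rose in 12 m vs. Ctrl (log2 fold change 0.93, SE 0.22, adjusted p = 0.00281) where the brighter 1448655_at fell, and their correlation over 18 arrays was -0.15. The mean of both probe sets gave a log2 fold change of 0.24 in 12 m vs. Ctrl (adjusted p = 0.177), of -0.23 in Ctrl28 vs. Ctrl (0.21) and of 0.48 for the difference of 28 from 5 days (0.158), so these 3 calls of Lrp1 hold for 1448655_at. The second probe sets of Apod (1444564_at) and Abcg1 (1455221_at) had the sign of the first in every comparison with Ctrl and did not pass in any. Their log2 fold changes reached -0.94 (Apod, adjusted p = 0.0796) and -0.43 (Abcg1, 0.115), both in IH5DR2 vs. Ctrl.

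**Figure D5:**
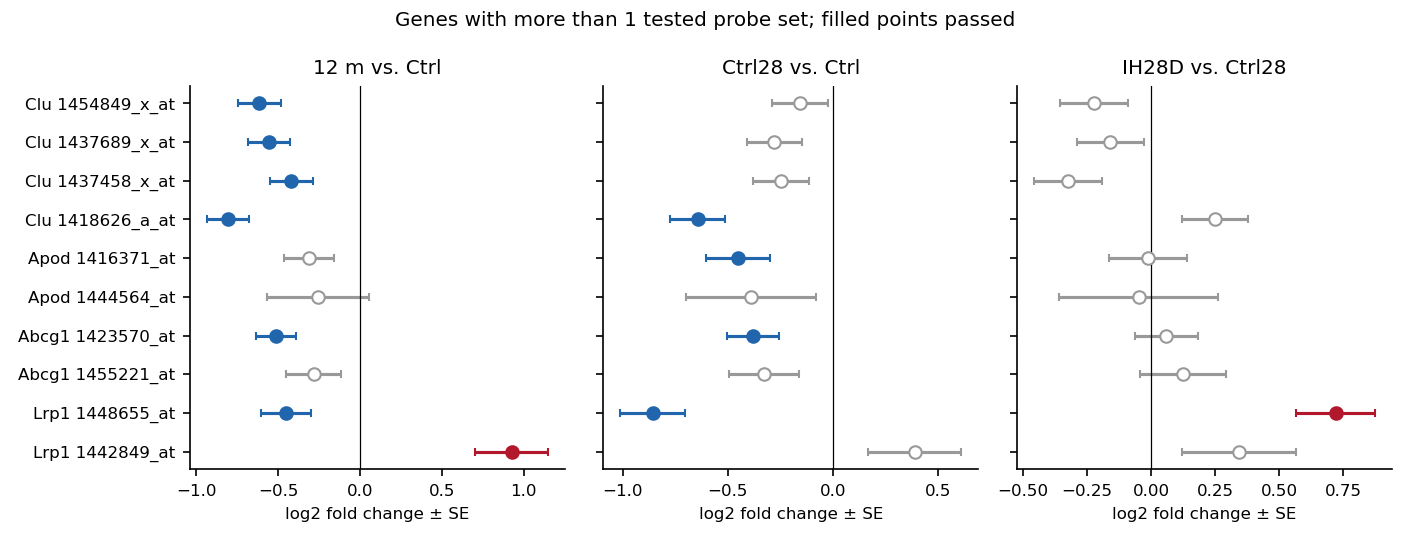
Log2 fold changes with SE of every tested probe set of Clu, Apod, Abcg1 and Lrp1 in 3 comparisons; filled points passed, red for higher and blue for lower. The 4 Clu probe sets were lower in 12 m, and the 2 Lrp1 probe sets had opposite signs in 12 m and Ctrl28 vs. Ctrl.

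The other genes of cholesterol metabolism were taken from lists by role. Their counts stand beside shares of all genes of 5.40% that rose and 1.12% that fell in IH5D vs. Ctrl. These shares were 6.05% and 2.45% in IH28D vs. Ctrl28 and 4.38% and 1.24% in IH5DR2 vs. Ctrl. They were 21.7% and 31.6% in 12 m vs. Ctrl and 16.9% and 21.0% in Ctrl28 vs. Ctrl. Of 17 tested genes of cholesterol synthesis, Hmgcs1, the synthase of HMG-CoA, rose in IH5D vs. Ctrl (log2 fold change 0.56, adjusted p = 0.0261) and Ebp, a sterol isomerase, fell (-0.47, 0.0455). In IH28D vs. Ctrl28, Fdps, the farnesyl diphosphate synthase, rose (0.66, 0.0446) and Fdft1, the squalene synthase, fell (-0.70, 0.0134). In 12 m vs. Ctrl 3 rose and 3 fell, led by Hmgcs1 (1.19, 1.1e-05), Idi1 (1.44, 0.00012), Ebp (-0.80, 0.000159) and Hsd17b7 (0.73, 0.00349). In Ctrl28 vs. Ctrl 4 rose and 6 fell. The medians of the 17 log2 fold changes in these 4 comparisons were -0.27, -0.07, -0.27 and -0.10, beside -0.09, 0.02, -0.23 and -0.08 for all genes.

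Among 12 tested genes of sterol sensing and nuclear receptors, Scap, the escort of the SREBP factors, fell in IH5D vs. Ctrl (-0.55, adjusted p = 0.0289). In IH28D vs. Ctrl28, Srebf2, the SREBP factor of cholesterol synthesis, rose (0.88, 0.00846) and Srebf1, that of fatty acid synthesis, fell (-0.58, 0.0411). In 12 m vs. Ctrl 1 rose and 4 fell: Mbtps2, a protease that cleaves SREBP, rose (0.88, 0.000323), and Scap (-0.86, 9.67e-05), Rxrb (-0.89, 0.00228) and Mbtps1 (-0.44, 0.00807) were the falls of smallest p. In Ctrl28 vs. Ctrl 2 rose and 3 fell, with Srebf2 lowest (-1.29, 9.73e-05). The medians of this list were -0.13, -0.09, -0.28 and -0.13 in the 4 comparisons.

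Of 10 tested lipoprotein receptors and their partners, 0 passed with limma in IH5D vs. Ctrl and in IH28D vs. Ctrl28, where 7 and 3 had an unadjusted p below 0.05, beside 29% and 24.9% of all genes. In 12 m vs. Ctrl 3 rose and 4 fell, led by Lrp10 (-1.11, adjusted p = 0.000463), Lrpap1, a chaperone of LRP1 (-0.78, 0.000634), Lrp1b (1.68, 0.00111) and Lrp6, a Wnt co-receptor (0.92, 0.00284). In Ctrl28 vs. Ctrl Vldlr (0.51, 0.00874) and Lrp8 (0.64, 0.0329) rose, which encode the receptors of the VLDL type and of apolipoprotein E in neurons, and Sort1 (-0.45, 0.00582) and Scarb1 (-0.77, 0.0163) fell. The list of genes named as apolipoproteins or lipases, with their partners, held 6 tested genes (Apoc1, Apoo, Apool, Lpl, Pltp and Angptl4). Of these, 0 passed with limma in IH5D vs. Ctrl or IH28D vs. Ctrl28 (1 and 0 at an unadjusted p below 0.05), and 1 rose and 4 fell in 12 m vs. Ctrl. Angptl4, an inhibitor of lipoprotein lipase (-1.95, 0.00165), Pltp, which transfers phospholipid (-1.30, 0.00771), and Apoo (-0.51, 0.0126) were among the 4 that fell, and Lpl, the lipase itself, rose (0.63, 0.0304). Angptl4 was weak, with signals of 26.9 to 29.3 in Ctrl and, below the minimum, 3.54 to 10.7 in 12 m. The median log2 fold changes in IH5D, IH28D, 12 m and Ctrl28, each against its control as above, were -0.03, -0.08, -0.20 and 0.22 for the receptors. They were -0.12, 0.05, -0.90 and -0.25 for the 6 genes of the list with Apoc1 and Lpl.

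Among 11 tested ABC transporters of lipids, Abcd2, a peroxisomal transporter of fatty acids, rose in IH5D vs. Ctrl (1.44, adjusted p = 0.024), and Abca2, a transporter of late endosomes, rose in IH28D vs. Ctrl28 (1.45, 0.000527) and fell in Ctrl28 vs. Ctrl (-1.73, 2.33e-05). In 12 m vs. Ctrl 3 rose and 3 fell, led by Abcd2 (2.12, 9.67e-05), Abcb1a (1.20, 0.000149), Abca5 (1.39, 0.000273) and Abca2 (-0.95, 0.00184). The Ctrl signals of Abcd2 were 12.7 to 14.3, below the minimum of 20, which it passed only through the other groups. Its rises vs. Ctrl are thus favoured by that minimum and start from weak signals. Of 17 genes of transport inside the cell and esterification, Osbpl8 (1.05, 0.0264) and Scp2 (0.50, 0.0458), which encode sterol-binding proteins, rose in IH5D vs. Ctrl, 0 passed with limma in IH28D vs. Ctrl28 (3 at an unadjusted p below 0.05), and 6 rose and 3 fell in 12 m. Of 4 tested sterol hydroxylases besides Cyp46a1, Cyp11a1 fell in 12 m (-0.64, 0.0479) and 0 passed with limma, with or without adjustment, in IH5D vs. Ctrl and IH28D vs. Ctrl28. The medians in the same 4 comparisons were 0.19, -0.01, 0.17 and 0.45 for the ABC transporters, -0.02, -0.09, -0.16 and -0.03 for transport and esterification, and -0.24, -0.32, -0.44 and -0.20 for the hydroxylases. After the 64 h of normoxia, as IH5DR2 vs. Ctrl, Hmgcs1 (0.72, 0.0146), Lrp6 (0.79, 0.0483), Abcd2 (1.61, 0.0197), Abcb1a (0.84, 0.027), Nceh1 (0.73, 0.0273), Osbpl6 (0.70, 0.0407) and Osbpl8 (0.90, 0.0436) rose and Srebf1 (-0.67, 0.0352) fell over all 7 lists.

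Markers of cell types were set beside these results. Of all genes, 21.7% rose and 31.6% fell in 12 m vs. Ctrl, and 16.9% and 21.0% in Ctrl28 vs. Ctrl. The shares were 6.05% and 2.45% in IH28D vs. Ctrl28 and 5.40% and 1.12% in IH5D vs. Ctrl. Of 11 microglia markers, 1 rose and 6 fell in 12 m vs. Ctrl, 4 fell in Ctrl28 vs. Ctrl and 3 rose in IH28D vs. Ctrl28. The 3 that rose were C1qa, C1qb and C1qc, the chains of complement C1q, which are named after their values were seen, with log2 fold changes of 0.62 to 0.87. In IH28D vs. Ctrl28 the 8 other markers did not pass, and the median of the 11 was 0.09, beside 0.02 for all genes. Among those 8, Csf1r (1852 in Ctrl28 and 1284 in IH28D), Aif1 (79.1 and 47.8), Cx3cr1 and P2ry12 had lower means in IH28D. Tmem119 had a higher mean (43.4 and 65.2). The summed microglia signal was 3559 to 4461 in Ctrl, 2996 to 3520 in IH5D, 2617 to 3915 in Ctrl28, 2292 to 2870 in IH28D and 2725 to 3039 in 12 m. Of 13 choroid plexus markers, 10 fell in 12 m vs. Ctrl, where their median log2 fold change was -3.22, and their summed signal was 778 to 1825 against 1938 to 20490 in Ctrl. Of 15 astrocyte markers, 3 rose and 6 fell in 12 m vs. Ctrl, and 1 rose and 1 fell in IH5D vs. Ctrl. Their median log2 fold change in 12 m vs. Ctrl was -0.17, beside -0.23 for all genes. Gfap fell in 12 m (-1.48, adjusted p = 0.00354). The means of Aqp4 (322 in Ctrl and 732 in 12 m), Slc1a2 (3379 and 5915) and Slc4a4 (341 and 574) were higher in 12 m. Over the 18 arrays the mean log2 signal of the microglia markers correlated with Apoe at 0.76, Lcat at 0.73 and Abca1 at -0.68, and Clu correlated with that of the astrocyte markers at 0.65 and of the choroid plexus markers at 0.55. The part of these cell types in the results was not tested.

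The members also varied among themselves. Over the 18 arrays Apoe, Lcat and Lrp1 had pairwise Pearson correlations of 0.72 to 0.82 in log2 signal, and Abca1 was negative with each of the 7 other genes, from -0.38 with Apoe to -0.74 with Cyp46a1. Within groups, after the group means were removed, Lrp1 correlated with Cyp46a1 at 0.82 and with Apoe at -0.45, and Apoe with Abca1 at 0.60. Ctrl28 array 1, which was high in Cyp46a1 and low in Apoe and Abca1, enters these within-group values.

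For each gene, the genes with the most similar pattern over the 18 arrays were named by their Pearson correlation in log2 signal. Rnf5 (0.97) and Wdr1 (0.95) were nearest to Apoe, Fam162a (0.95) and Lrpap1 (0.94) to Clu, and Uap1l1 (0.85) and Mir670hg (0.81) to Apod. Hdac5 (0.96) and Mrpl10 (0.95) were nearest to Lcat, Trp53inp1 (0.95) and Usp47 (0.92) to Abca1, and Zfp628 (0.90) and Paqr4 (0.90) to Abcg1. Cc2d1a (0.97) and Bag6 (0.97) were nearest to Lrp1, and Mypop (0.95) and Flot2 (0.95) to Cyp46a1. Within groups these correlations were 0.66 to 0.97, lowest for Hdac5 with Lcat and highest for Flot2 with Cyp46a1. Ctrl28 array 1, far above the rest of its group in Cyp46a1, enters these values too.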

How the data were processed

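Total hippocampal RNA of 18 samples was measured on Affymetrix Mouse 430 2.0 arrays. The authors derived and normalized the signals with MAS5, and deposited them on the log2 scale; once unlogged, they have the same trimmed mean on every array. No columns of other samples or of comparisons were used.

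Of 45101 probe sets, 34945 name 1 gene, 932 name several, 9160 name none and 64 are controls. Those whose unlogged signals averaged above 20 were kept, as in the study's methods, and the brightest stood for its gene (11656 genes). A linear model of limma 3.58.1 (R 4.3.3) with a mean per group over all 18 arrays, moderated variances with a trend and Benjamini-Hochberg adjustment over all genes gave every adjusted p, and the threshold was 0.05. A second fit took all 19919 probe sets of single genes. The fit was tested on simulated data in which all groups of a gene had the same spread. Such data cannot show how the fit behaves where 1 group spreads more widely, as Ctrl28 did for Cyp46a1. The number of arrays limits the precision.

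The labels number the arrays 1 to 3 in each group. They state no pairing between groups. Deviations of same-numbered IH5D and Ctrl arrays from their group means correlated at 0.15, 0.29 and 0.24, and for this reason a block by number was tried. In the other comparisons such correlations ran from -0.37 to 0.28, so these values do not establish a pairing. Members, lists and tests were chosen with earlier results of these data known. Named list genes are up to 4 of smallest p among those that passed, and for each member the 2 genes of highest correlation. Sequences are from RefSeq.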

Additional observations from a re-analysis of the deposited data

Results flagged for a closer look

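In Apoe, Lcat and Lrp1 the change after 28 days of IHT differed from the change after 5 days, by the test of the difference itself. The log2 fold change of IH28D vs. Ctrl28 minus that of IH5D vs. Ctrl was 1.13 for Apoe, 1.99 for Lcat and 0.87 for Lrp1. Lcat fell in IH5D vs. Ctrl and rose in IH28D vs. Ctrl28, and its group means were 92.5 in IH5D, 115 in IH28D, 176 in Ctrl and 54.1 in Ctrl28. The means of the 2 control groups thus lay further apart than those of the 2 treated groups in this gene. The same held for Apoe, with 5183 in Ctrl and 2480 in Ctrl28 against 4129 in IH5D and 4347 in IH28D. For Lrp1 (1448655_at) the means were 497 in Ctrl and 280 in Ctrl28 against 446 in IH5D and 452 in IH28D.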

How the results depend on the processing

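The counts of the 8 genes that passed moved with the variance and the arrays used. Array weights gave 4 for IH5D vs. Ctrl (2 with all arrays and no weights), 4 for IH5DR2 vs. Ctrl (0), 1 for IH5DR2 vs. IH5D (0, the added gene being Lcat) and 5 for the difference of 28 from 5 days (3), while the calls over all genes rose to 30.8%, 30.6%, 0.214% and 38.2%. With the compared groups alone the count was 2 for IH5DR2 vs. Ctrl (18.8% of all genes) and 0 for IH28D vs. Ctrl28 (0.3%). With the gap between 3' and 5' controls in the model it was 3 for IH5DR2 vs. Ctrl (22.5% of all genes) and 5 for the difference (30.3%). The methods' t-test after adjustment gave 0 for IH5D vs. Ctrl, IH28D vs. Ctrl28 and Ctrl28 vs. Ctrl, where 0, 1 and 0 of all 11656 genes passed. It gave 1 for 12 m vs. Ctrl (6), where 13% of all genes passed. With single arrays left out, the counts ran from 0 to 3 for IH5D vs. Ctrl, 0 to 3 for IH5DR2 vs. Ctrl, 4 to 7 for 12 m vs. Ctrl, 3 to 4 for IH28D vs. Ctrl28, 0 to 0 for IH5DR2 vs. IH5D, 4 to 7 for Ctrl28 vs. Ctrl and 2 to 5 for the difference, each upper end above 0 coming without Ctrl28 array 1. Over all genes the calls in these fits ran from 0% to 23.4% for IH5D vs. Ctrl and 0% to 22.3% for IH5DR2 vs. Ctrl. They ran from 39.7% to 60.5% for 12 m vs. Ctrl and 3.96% to 15.6% for IH28D vs. Ctrl28. For IH5DR2 vs. IH5D they were 0% to 0.0172%, for Ctrl28 vs. Ctrl 24.3% to 53.3% and for the difference 4.54% to 28.6%. Against the other control group 2 genes passed for 12 m (16.3% of all genes) and 4 for IH28D (33.3%), of which Lcat alone was among the 3 of the main comparison and with the other sign. Among values that passed before or after the change of setting, the log2 fold changes that changed sign were 0.58 for Apoe, 0.11 for Lcat and 0.41 for Lrp1 in 12 m vs. Ctrl28, -0.25, -0.62 and -0.14 for the same genes in IH28D vs. Ctrl, and 0.24 for Lrp1 in 12 m vs. Ctrl with the mean of its probe sets. A further 42 values changed sign and passed in neither setting. In IH28D vs. Ctrl28 these were Abcg1 (-0.32) and Cyp46a1 (-0.48) against the other control. With array weights they were Apod (0.19), Abca1 (-0.028) and Abcg1 (-0.0083), and with the gap Apod (0.090), Clu (0.012) and Abca1 (-0.31). Median centring gave -0.034 for Abcg1 and -0.060 for Cyp46a1, quantile normalization 0.089 for Apod and 0.0002 for Clu, and the t-test's means 0.0046 for Apod and -0.15 for Cyp46a1. With single arrays left out the values there ran from -0.19 to 0.084 for Apod, -0.10 to 0.24 for Abca1, -0.023 to 0.13 for Abcg1 and -0.23 to 0.54 for Cyp46a1. Elsewhere, Apod had 0.14 in 12 m vs. Ctrl28, and the mean of probe sets of Lrp1 gave 0.057 in IH5D and 0.22 in IH5DR2 vs. Ctrl. Lrp1 in IH5DR2 vs. Ctrl had 0.0007 with quantile normalization, 0.008 with array weights and -0.069 to 0.069 with single arrays left out. Clu had, for the difference, 0.074 with the mean of probe sets, 0.090 with quantile normalization, 0.011 with median centring, 0.17 with array weights, 0.25 with the gap and -0.10 to 0.13 with single arrays left out, and -0.16 to 0.011 so in IH5DR2 vs. IH5D. The cause of these shifts was not tested. The replicate block in the compared groups alone, chosen after seeing the data, gave 6 for IH5D vs. Ctrl, 2 for IH5DR2 vs. Ctrl, 0 for IH28D vs. Ctrl28 and 0 for Ctrl28 vs. Ctrl. In this order 16.7%, 13.2%, 0.3% and 0% of all genes rose and 18.4%, 9.59%, 0.00858% and 0% fell. The block over all arrays changed no count among the 8 genes by more than 1.5 times, while over all genes the calls went from 760 to 434 in IH5D vs. Ctrl and from 654 to 340 in IH5DR2 vs. Ctrl. Same-numbered arrays of the other comparisons did not all correlate above 0.1 in their deviations. Median centring moved the median of all genes in 12 m vs. Ctrl from -0.23 to -0.47 and the calls from 2524 higher and 3684 lower to 1890 and 5316. Under it, Lrp1 in IH28D vs. Ctrl28 did not pass (adjusted p = 0.0689), and under quantile normalization Apoe in 12 m vs. Ctrl did not (0.212). The 22 calls over the 14 tested probe sets and 6 comparisons stayed within 1.5 times without a minimum signal. Of the single-gene values under all alternatives, 1491 kept direction and side of the threshold, 49 lost and 43 gained the call, and 49 changed sign, of which 7 had passed in 1 of the settings or in both.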
